A study of Mus musculus with 36 samples.

Results

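E0771 cells, a mouse line from a mammary adenocarcinoma that the labels give as breast cancer cells, were kept for 24 h in 40 mM KCl or in DMSO, the solvent control. The 3 KCl libraries were compared with the 3 DMSO libraries over every expressed gene, so 6 of the 36 libraries of the series enter the comparison and 13357 of 32285 mouse gene IDs were tested. The series also holds a second mouse breast cancer line, AT-3, and treatments with potassium channel openers. Cells were seeded for 24 h before treatment, and total RNA was sequenced as mRNA libraries. The labels of the KCl libraries name no DMSO, and no group of the samples given received an equal load of another salt or solute, so effects of potassium, of chloride, of osmolarity and of the missing solvent cannot be told apart. Nothing in the labels says that the 3 libraries of a group came from separate cultures, so p-values measure only the spread between these libraries.

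Cells hold potassium inside and sodium outside through the sodium pump, and the potassium gradient sets most of the resting membrane voltage. Raising potassium in the medium lowers that gradient and depolarizes the membrane. Added salt also makes the medium hypertonic: cells shrink, take in ions, and over hours replace them with small organic osmolytes such as myo-inositol, taurine, betaine, sorbitol and glycerophosphocholine. The transcription factor NFAT5 (also called TonEBP) drives many genes of that exchange. ATF4 drives amino acid carriers, amino acid synthesis and tRNA synthetases, and MYC drives ribosome production.

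Libraries held 33.4 to 42.4 M counts, and 0.626 to 0.739% of counts came from mitochondrial genes, with overlapping ranges in the 2 groups. The first principal component of the 6 libraries took 47.5% of the variance and placed all DMSO libraries at -32.3 to -28.5 and all KCl libraries at 25.2 to 36. Levels are counts per M of library total after scaling (CPM), with the 3 libraries in replicate order. Changes are log2 fold changes of KCl against DMSO with their standard error. Calls are from edgeR's quasi-likelihood test at a Benjamini-Hochberg adjusted p below 0.05 over all tested genes, and "rose" and "fell" are used only of genes that passed. Of 23 listed epithelial and mammary markers 9 were tested, and the list summed to 637 to 648 CPM in DMSO. In DMSO, Krt8 (keratin 8) stood at 202 CPM and Cdh1 (E-cadherin) at 1.41 CPM. Epcam had 0, 2 and 6 counts and Krt18, the usual partner of keratin 8, 4, 0 and 0 counts. The mesenchymal filament Vim stood at 3642 CPM. Members not named here hold most of the epithelial sum, so these genes give no verdict on the labelled tissue. In bulk RNA, fewer cells of a kind and less RNA per cell cannot be told apart.

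KCl changed 4860 genes (36.4% of those tested), of which 2381 (17.8%) rose and 2479 (18.6%) fell. Most changes were small: 77.7% of the called genes differed by less than 1.5-fold, and 1082 (8.1% of those tested) by more, 681 (5.1%) of them rises and 401 (3%) falls. At 2-fold or more the balance tilted, with 364 rises (2.73%) against 115 falls (0.861%). The median log2 fold change of all tested genes was -0.00602. These shares are the background for every list of genes described.

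Slco4a1, an organic anion transporter, stood at 0.34, 0.303 and 0.289 CPM in DMSO and 9.3, 7.44 and 8.47 CPM in KCl, a log2 rise of 4.74 ± 0.25 (edgeR adjusted p = 1.56e-15). Ptgds, which makes prostaglandin D2 and carries small lipids, went from 1.51, 2.65 and 1.04 to 30.3, 34.8 and 24.3 CPM, a rise of 4.08 ± 0.22 (edgeR adjusted p = 2.84e-11). Every KCl library of both genes lay far above every DMSO library, and the rule that picked them required no overlap.

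Igfbp5, a secreted binding protein of insulin-like growth factors, had the largest rise of the 20 genes that the naming rule picks. Its level was 0.243, 0.404 and 0.173 CPM in DMSO and 8.63, 9.42 and 6.76 CPM in KCl (log2 4.88 ± 0.28, edgeR adjusted p = 1.35e-14). In AT-3 the gene averaged 6722 CPM over the 6 DMSO and KCl libraries. Thbs1, Fn1, Timp3 and Krt14, which AT-3 also held at a mean of 1420 to 7707 CPM, stood in every E0771 library compared between 0 and 0.423 CPM, while Igfbp5 in E0771 KCl reached 0.123% of its AT-3 level and Thbs1 0.00502%. That set of genes was chosen after the AT-3 level of Igfbp5 had been seen.

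Gprc5b, an orphan receptor, rose from 2.24, 3.59 and 2.6 to 29.1, 27.8 and 23.1 CPM (3.24 ± 0.21). Mrgprf, a receptor of the Mas family, rose by 2.81 and Gpr146, an orphan receptor, by 1.92 on the log2 scale. Dusp1, a phosphatase that switches off MAP kinases, went from 16.8, 17.2 and 16.1 to 85, 95.5 and 79 CPM (2.37 ± 0.12). Mical2, a flavoprotein that oxidizes actin, went from 31.6, 30.1 and 32.4 to 144, 146 and 133 CPM (2.17 ± 0.07), and Ampd3, an AMP deaminase, from 24.9, 21.4 and 21.8 to 97.4, 107 and 88.2 CPM (2.10 ± 0.07). None of the KCl libraries of these genes overlapped the DMSO libraries, which the naming rule required.

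S100a4, a calcium-binding protein linked to motility, stood at 96.5, 101 and 110 CPM in DMSO and 361, 419 and 429 CPM in KCl (1.98 ± 0.15). Spp1 (osteopontin) went from 60.9, 69.4 and 59.1 to 234, 252 and 220 CPM (1.90 ± 0.06), and Sod3, the extracellular superoxide dismutase, from 7.68, 6.16 and 7.68 to 25.6, 29.8 and 26 CPM (1.92 ± 0.16). Ly6c1 rose by 2.74 ± 0.20 from 3.5 to 23.3 CPM, with Ly6c2 at 0.246 and 1.7 CPM, and reads of these near-identical copies may have been split between them. Cavin2, a caveolar coat protein, rose by 2.27, the connexin Gja4 by 1.87, the pro-apoptotic Bmf by 1.88, Slc45a3 by 2.50, the IgE receptor Fcer2a by 2.18, and Hsd11b2, which inactivates glucocorticoids, by 1.87.

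**Figure D1:**
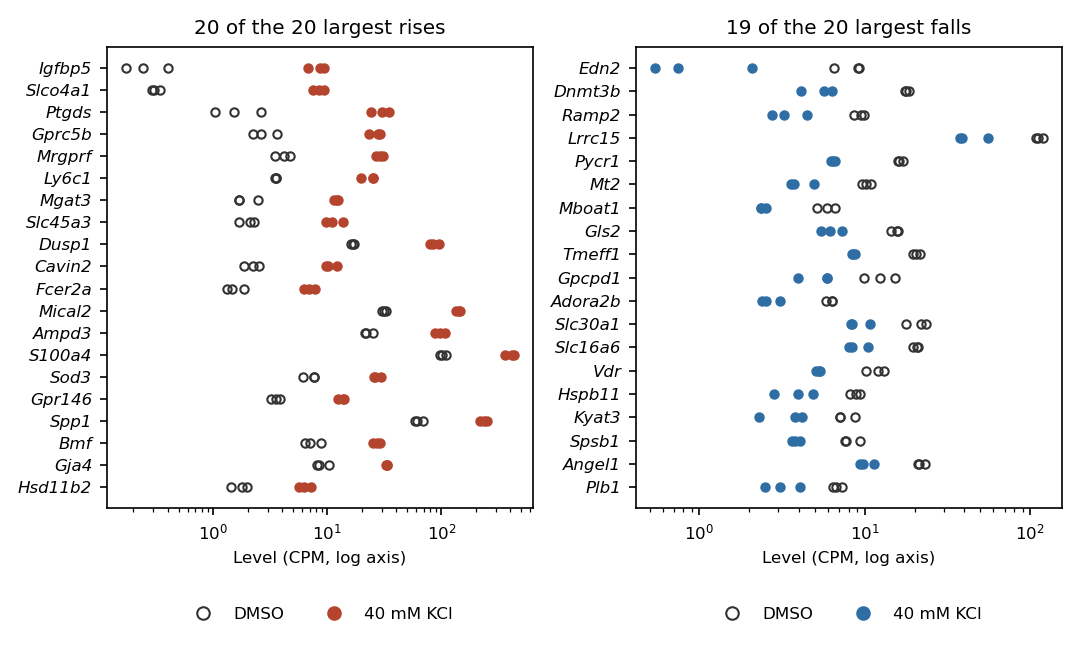
Level in CPM (log axis) of the 20 largest rises (left) and 19 of the 20 largest falls (right) that the naming rule picks, with 1 point for each of 3 DMSO and 3 KCl libraries. In every row the filled KCl points and the open DMSO points do not overlap, which the rule itself required.

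Among the falls, Edn2, a secreted vasoconstrictor peptide, went from 9.23, 6.52 and 9.12 CPM in DMSO to 0.746, 0.54 and 2.08 CPM in KCl (-2.84 ± 0.32, edgeR adjusted p = 5e-07). Dnmt3b, which sets new DNA methylation, went from 17.6, 17.7 and 18.6 to 5.65, 4.14 and 6.29 CPM (-1.73 ± 0.13). Lrrc15, a membrane protein of matrix-producing cells, went from 111, 108 and 119 to 38.7, 37.8 and 55.8 CPM (-1.35 ± 0.19). The spread of Edn2 in KCl was wide, and its highest KCl library was still below its lowest DMSO library, as the naming rule required.

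The other falls included enzymes, receptors and transporters. Pycr1, the last enzyme of mitochondrial proline synthesis, stood at 17, 16 and 15.9 CPM in DMSO and 6.61, 6.42 and 6.27 CPM in KCl (-1.34 ± 0.15). Gls2, a glutaminase, changed by -1.28, Mboat1, which acylates lysophospholipids, by -1.29, the kynurenine aminotransferase Kyat3 by -1.15, and Gpcpd1, which splits the osmolyte glycerophosphocholine, by -1.25. Of receptors and transporters, the vitamin D receptor Vdr changed by -1.17, the adenosine receptor Adora2b by -1.20, and the zinc exporter Slc30a1 by -1.20. Tmeff1 changed by -1.28, the ubiquitin ligase adaptor Spsb1 by -1.10, Hspb11, a part of the transport machinery of cilia, by -1.17, Angel1 by -1.10 and the phospholipase Plb1 by -1.09. Ramp2 (-1.41), Slc16a6 (-1.19) and metallothionein Mt2 (-1.31) share 33.4%, 22.5% and 73.5% of their exon bases with a neighbouring gene, so their values are uncertain, since the counting strand is not given in the sources used here.

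The osmolyte list rose as a group. Beside carriers and enzymes of osmolytes it holds Nfat5, Sgk1, chaperones, water channels and other genes, which its counts include. Of 24 tested members of the list of osmolyte uptake and synthesis, 15 rose and 1 fell, against 17.8% and 18.6% of all tested genes, and the median log2 change was 0.82. Slc5a3, the myo-inositol carrier, stood at 41.4, 45.1 and 46.3 CPM in DMSO and 133, 153 and 128 CPM in KCl (1.64 ± 0.11, edgeR adjusted p = 2.3e-08). Akr1b3, the aldose reductase that makes sorbitol, went from 185, 188 and 185 to 578, 608 and 442 CPM (1.54 ± 0.09). Both groups of libraries lay well apart for these genes; Slc5a3, Slc6a12, Gdpd5 and Hspa1a, and Rrn3 and Gars among the growth genes, were named after their values were seen.

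Slc6a6, the taurine carrier, stood at 731, 707 and 723 CPM in DMSO and 1074, 1025 and 980 CPM in KCl (0.51 ± 0.04). Pnpla6, a phospholipase that yields glycerophosphocholine, went from 13.6, 15.4 and 14.7 to 54.4, 52.9 and 50.6 CPM (1.85 ± 0.09), while Gdpd5, which breaks glycerophosphocholine down, fell from 25.3 to 14.2 CPM (-0.83 ± 0.11). Slc38a2, a carrier of neutral amino acids, went from 374, 412 and 414 to 756, 772 and 732 CPM (0.91 ± 0.05). The betaine carrier Slc6a12 passed (edgeR adjusted p = 0.0227) on 2, 0 and 0 counts in DMSO and 4, 16 and 10 in KCl, too few to give a fold.

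Nfat5 itself stood at 185, 176 and 208 CPM in DMSO and 347, 372 and 321 CPM in KCl (0.87 ± 0.12, edgeR adjusted p = 7.3e-05). The chaperones Hspa4l (1.14 ± 0.07) and Hspa1b (1.65 ± 0.18) and the water channel Aqp1 (1.46 ± 0.10) also rose; Hspa1b has a near-identical copy, Hspa1a (1.80 ± 0.27), and reads may be split between them. Slc38a1 at 0.05, Impa1, which recycles inositol, at 0.04 and Chkb at 0.02 did not pass. Mrps6, a mitochondrial ribosomal protein gene that overlaps Slc5a3, rose by 1.20 ± 0.06 from 33.2 to 76.5 CPM, and 10.4% of its exon bases are shared with Slc5a3.

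**Figure D2:**
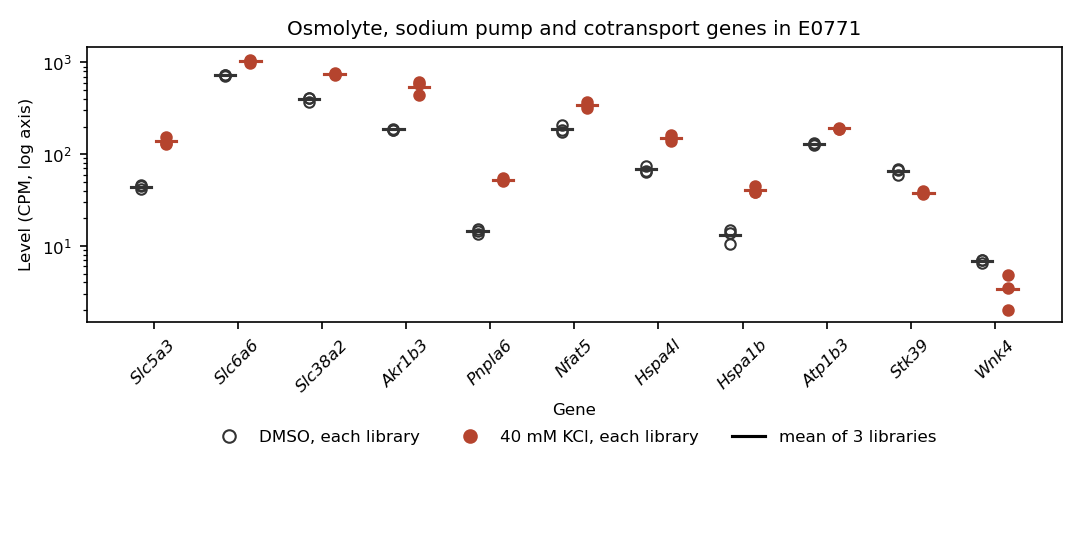
Level in CPM (log axis) of osmolyte, sodium pump and cotransport genes, with 1 point per library and bars at the mean of 3 libraries. Slc5a3, Akr1b3, Pnpla6 and Nfat5 lie higher in all 3 KCl libraries than in any DMSO library, and Stk39 and Wnk4 lie lower.

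The promoter of Pnpla6 is printed because this strong riser holds a match to the tonicity element, the sequence that NFAT5 binds. The RefSeq windows used (GRCm38.p6) run from 250 bases before to 50 after a transcript start and read 5′ to 3′ on the gene's strand; capitals mark the match, searched on both strands. Pnpla6 has a match at -168 in 1 of its windows (chr8:3515386-3515685, plus strand). A match was found in windows of 2 of 19 members of the osmolyte list with a window (10.5%). It was in 5 of 43 genes of ribosome biogenesis (11.6%), a list that fell, and 4.57% of 10106 tested genes with a window. TGACGTCA, the cyclic AMP element, was in 3.62% of the tested genes. No printed match overlaps a match to another of the motifs searched, which were these and the CArG box, CACGTG and TGATGNAA.
Pnpla6: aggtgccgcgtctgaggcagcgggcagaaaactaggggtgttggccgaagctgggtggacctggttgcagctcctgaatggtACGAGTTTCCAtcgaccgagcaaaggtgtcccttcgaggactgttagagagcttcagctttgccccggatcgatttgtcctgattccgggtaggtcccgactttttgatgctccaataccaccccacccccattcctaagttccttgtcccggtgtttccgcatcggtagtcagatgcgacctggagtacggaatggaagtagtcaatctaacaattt

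Sodium pump genes also rose. Of 7 tested subunits, 6 rose and 0 fell, with a median log2 change of 0.57. Atp1b3, a beta subunit, went from 132, 128 and 125 CPM in DMSO to 188, 195 and 190 CPM in KCl (0.57 ± 0.04). Every KCl library lay above every DMSO library, as for 25% of all tested genes. The regulator Fxyd5 stood at 0.05 and did not pass.

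Other ion transport genes moved in both directions. Stk39, the kinase that activates sodium-coupled chloride uptake, went from 59.9, 68 and 68.5 to 36.8, 37.5 and 40.1 CPM (-0.78 ± 0.06), and Wnk4, an upstream kinase, from 7.05, 6.97 and 6.58 to 3.44, 2.01 and 4.82 CPM (-0.99 ± 0.22). Slc12a2, the uptake carrier that Stk39 activates, fell by 0.26 on the log2 scale, and Slc12a7, a potassium-chloride exporter, rose by 0.43 ± 0.05. In the 12 tested genes of cotransport and its kinases, 3 rose and 4 fell, with a median of -0.05; 1 rose without DMSO replicate 1 or KCl replicate 2.

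Of 9 tested potassium channel genes, 3 rose and 2 fell. Kcnh2 (0.47 ± 0.11) and the beta subunit Kcnab2 (0.14 ± 0.05) were among those that rose, and Kcnq5 (-0.90 ± 0.14) and Kcnn1 (-1.05 ± 0.18) fell. Kcnma1, the BK channel, was below the filter, with 4, 0 and 0 counts in DMSO and 2, 0 and 0 in KCl. The call of Kcnab2 was lost with library totals only and without any 1 of the 6 libraries but DMSO replicate 3. Of 23 anion channel genes 6 rose and 5 fell; the falls came to 8 with only the 6 libraries compared, 2 without DMSO replicate 3 and 3 without KCl replicate 1 or 2. Lrrc8a, the required subunit of the volume-regulated anion channel, rose by 0.36 ± 0.07, and the calcium-activated chloride channel Ano1 went from 129, 123 and 131 to 200, 207 and 204 CPM (0.68 ± 0.05).

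Genes of calcium entry, stores and pumps gave 11 rises and 8 falls of 37 tested (median 0.02). Orai2, a store-operated channel subunit, rose by 0.43 ± 0.07, Slc8b1, the mitochondrial sodium-calcium exchanger, by 0.65 ± 0.07, and the channel Trpv2 fell from 20.5 to 14 CPM (-0.55 ± 0.08). The pump Atp2a2 (0.04) and the receptor Itpr3 (0.08) did not pass. Of 20 genes that calcium-NFAT or CREB signals induce, 6 rose and 5 fell; the falls came to 3 without DMSO replicate 3 or KCl replicate 1 or 2. Arc, an activity-induced gene, went from 11.8, 11.7 and 10.3 to 28, 29.8 and 28.6 CPM (1.35 ± 0.11), and Nfatc1, itself a target of NFAT, fell by 0.32 on the log2 scale.

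Immediate early transcription factors leaned lower after 24 h, with 5 rises and 10 falls of 24 (median -0.04). The falls came to 6 when either DMSO replicate 1 or 3 was left out, and likewise for KCl replicate 1 or 2, and the rises to 3 without DMSO replicate 1. Myc, which drives growth genes, stood at 554, 560 and 554 CPM in DMSO and 370, 386 and 392 CPM in KCl (-0.54 ± 0.07, edgeR adjusted p = 6.26e-06). Klf2 went from 39.1, 34 and 35.5 to 16.6, 17.9 and 25 CPM (-0.86 ± 0.13), and Klf4 from a mean of 41.7 to 22.6 CPM. Ier3, an early-response gene tied to survival, rose from 80.1, 83.8 and 77.4 to 272, 260 and 236 CPM (1.67 ± 0.06). Of 20 genes of ERK feedback and EGF receptor ligands, 1 rose and 5 fell. Over the alternatives the rises ran from 1 to 4 and the falls from 4 to 6. Dusp6 (-0.43 ± 0.08) and Hbegf (-0.65 ± 0.11) fell and Spred2 (0.35 ± 0.05) rose, while Spred1 (0.12) and Etv4 (0.11) did not pass. Etv4 passed as a rise under 9 of 15 alternatives and Spred1 under 8.

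Genes of ribosome production fell together. Of 48 tested genes of ribosome biogenesis and RNA polymerase I, 44 fell and 0 rose, with a median log2 change of -0.32. Over genes with a mean of at least 32 CPM, a level that all 48 reach, 24.3% fell and 24.8% rose. Ncl (nucleolin) stood at 2281, 2128 and 2305 CPM in DMSO and 1666, 1622 and 1701 CPM in KCl (-0.43 ± 0.04, edgeR adjusted p = 1.61e-09). Polr1b, a core subunit of RNA polymerase I, went from 117, 120 and 118 to 84.6, 80.9 and 85.3 CPM (-0.50 ± 0.06), and Rrp9, a component of the machinery that processes ribosomal RNA, from 118, 120 and 118 to 77, 78.5 and 77.6 CPM (-0.61 ± 0.05). The fall of Rrp9 was 1.53-fold. In none of the 3 genes did the groups overlap, and 25.6% of all tested genes likewise lay lower in KCl without overlap.

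The RNA helicase Ddx21 (-0.36 ± 0.04), Heatr1 (-0.46 ± 0.05) and Noc3l (-0.49 ± 0.06) also fell. Ubtf (0.08), which organizes ribosomal DNA, Polr1c (-0.04), Polr1d (0.09) and Taf1d (-0.18) were the 4 members that did not pass. Rrn3, which recruits RNA polymerase I, went from 117, 117 and 111 to 92.9, 90.9 and 97.9 CPM (-0.29 ± 0.05). Its promoter (chr16:13780449-13780748, plus strand) is shown because it holds CACGTG, the E-box that MYC and related factors bind and whose reverse complement is the same sequence, at -215 and -48. The E-box was found in windows of 10 of 43 such genes (23.3%), 4 of 12 tRNA synthetases (33.3%) and 11.6% of tested genes with a window.
Rrn3: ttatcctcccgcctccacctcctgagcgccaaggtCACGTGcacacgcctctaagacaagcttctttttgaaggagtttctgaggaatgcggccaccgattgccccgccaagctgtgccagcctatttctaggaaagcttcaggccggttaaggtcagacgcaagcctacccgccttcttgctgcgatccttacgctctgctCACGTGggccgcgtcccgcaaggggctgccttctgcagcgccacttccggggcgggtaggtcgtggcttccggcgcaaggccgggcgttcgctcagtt

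Amino acid synthesis fell with it. Of 17 tested genes of serine, glycine, asparagine and proline synthesis, 15 fell and 0 rose (median -0.40). Asns, asparagine synthetase, stood at 488, 485 and 481 CPM in DMSO and 344, 357 and 348 CPM in KCl (-0.47 ± 0.05). Aldh18a1, which starts proline synthesis, went from 212, 211 and 208 to 162, 143 and 151 CPM (-0.47 ± 0.06), and Shmt2, the mitochondrial serine hydroxymethyltransferase, from 726, 726 and 707 to 545, 558 and 572 CPM (-0.37 ± 0.04). Psat1 (0.03) and Aldh1l2 (-0.20) did not pass.

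Aminoacyl-tRNA synthetases, which load tRNAs, gave 15 falls and 0 rises of 20 (median -0.27). Lars went from 303, 311 and 300 to 215, 212 and 216 CPM (-0.51 ± 0.06), and Gars from 487, 471 and 469 to 371, 372 and 374 CPM (-0.35 ± 0.06). Aars (-0.16), Vars (0.06) and Qars (-0.01) did not pass. Atf4 itself stood at 485, 498 and 483 CPM in DMSO and 405, 392 and 402 CPM in KCl (-0.29 ± 0.08, edgeR adjusted p = 0.0141), and its call was lost without KCl replicate 2.

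Carriers of the ATF4 response split: 3 rose and 5 fell of 11. Slc7a5, which brings in leucine, went from 1044, 1076 and 1026 to 644, 615 and 651 CPM (-0.72 ± 0.04), its partner Slc3a2 fell from 509 to 336 CPM (-0.60 ± 0.04), and Slc7a11, the cystine carrier, from 13.3 to 7.88 CPM (-0.77 ± 0.18). Slc38a2, also an osmolyte gene, was among those that rose. The falls of the carriers came to 3 without a filter or without DMSO replicate 1 or KCl replicate 2 or 3. The stress factors gave 3 rises and 4 falls of 17, with 9 falls when only the 6 libraries compared were used and 2 without KCl replicate 2: Chac1, which degrades glutathione, fell (-0.68 ± 0.14), Ddit4, an inhibitor of mTORC1, rose (0.69 ± 0.18), and Trib3 (-0.31) and Atf5 (-0.46) did not pass.

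The promoters of 4 of the genes that fell are shown because they hold TGATGNAA, the core of the element that ATF4 binds with C/EBP partners, in capitals on either strand. The element was found in windows of 4 of 14 genes of the synthesis list (28.6%), 5 of 12 tRNA synthetases (41.7%) and 2 of 8 carriers (25%), against 2.66% of tested genes with a window. The first match lay at -23 in Asns (chr6:7693160-7693459, minus strand), -103 in Pycr1 (chr11:120643699-120643998, minus strand), -66 in Slc7a11 (chr3:50443564-50443863, minus strand), which has another at -47, and -30 in Gars (chr6:55037751-55038050, plus strand). These matches describe the letters only.
Asns: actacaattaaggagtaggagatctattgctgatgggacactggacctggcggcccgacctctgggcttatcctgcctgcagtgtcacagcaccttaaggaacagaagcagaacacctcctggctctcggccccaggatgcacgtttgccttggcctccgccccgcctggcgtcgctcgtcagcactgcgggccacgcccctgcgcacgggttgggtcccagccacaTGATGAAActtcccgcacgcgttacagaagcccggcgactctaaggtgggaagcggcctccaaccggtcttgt
Pycr1: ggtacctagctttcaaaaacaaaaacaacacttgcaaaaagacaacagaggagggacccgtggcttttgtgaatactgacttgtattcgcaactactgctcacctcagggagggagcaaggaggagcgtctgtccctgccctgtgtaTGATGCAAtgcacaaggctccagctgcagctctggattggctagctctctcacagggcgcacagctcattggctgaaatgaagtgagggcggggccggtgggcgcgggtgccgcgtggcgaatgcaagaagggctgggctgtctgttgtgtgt
Slc7a11: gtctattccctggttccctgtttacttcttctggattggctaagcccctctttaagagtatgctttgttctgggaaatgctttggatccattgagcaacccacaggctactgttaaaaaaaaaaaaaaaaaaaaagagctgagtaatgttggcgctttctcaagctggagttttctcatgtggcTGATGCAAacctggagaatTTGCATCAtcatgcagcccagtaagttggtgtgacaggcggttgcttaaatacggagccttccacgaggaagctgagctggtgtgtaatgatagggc
Gars: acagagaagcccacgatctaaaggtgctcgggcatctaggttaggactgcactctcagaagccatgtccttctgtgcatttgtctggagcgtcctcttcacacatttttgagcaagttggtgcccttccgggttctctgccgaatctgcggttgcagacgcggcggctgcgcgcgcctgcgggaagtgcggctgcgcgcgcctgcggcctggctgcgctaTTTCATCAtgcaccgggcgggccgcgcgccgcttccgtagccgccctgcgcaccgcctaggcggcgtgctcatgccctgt

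Mitochondrial ribosomal proteins gave 27 falls and 3 rises of 44 (median -0.23). Mrps26 (-0.55 ± 0.07), Mrps22 (-0.51 ± 0.07) and Mrps10 (-0.48 ± 0.07) fell, Mrpl3 (0.01) and Mrpl38 (-0.05) did not pass, and Mrps6, the strongest riser of the list, overlaps Slc5a3. Translation factors gave 19 falls and 1 rise of 31 (median -0.15). Eif2b3, a subunit of the exchange factor that ATF4-inducing stress blocks, went from 42.1, 42.1 and 40.2 to 24, 24.8 and 24.9 CPM (-0.76 ± 0.08), and Eef2k, the kinase that slows elongation, from 66.4, 61.9 and 62.2 to 37.6, 34.4 and 35.7 CPM (-0.82 ± 0.06). Eef2 (0.02) and Eif4g1 (-0.01) did not pass.

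Proteasome subunits gave 22 falls and 0 rises of 31, all small (median -0.17). Psmc1, an ATPase of the cap, went from 248, 242 and 245 to 205, 192 and 194 CPM (-0.31 ± 0.04). In a list of polyamine synthesis that also holds genes of its control and of polyamine breakdown, 3 rose and 4 fell of 9. Odc1, ornithine decarboxylase and the step that sets the pathway's rate, went from 620, 589 and 630 to 358, 363 and 380 CPM (-0.74 ± 0.06), Srm (spermidine synthase) fell (-0.39 ± 0.05), and Amd1 (0.46 ± 0.05) and Sat1 (0.49 ± 0.09) rose.

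**Figure D3:**
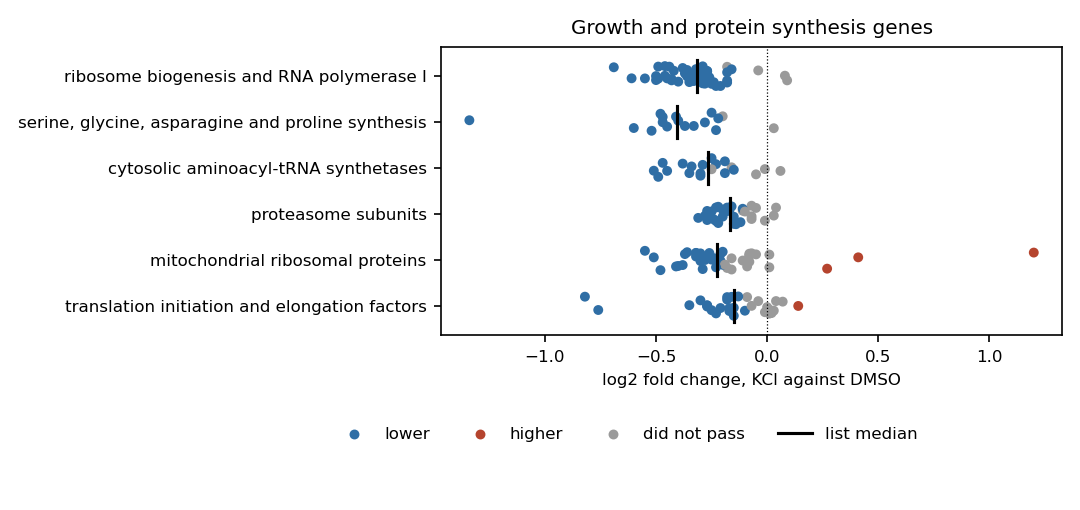
Log2 fold change of KCl against DMSO for each tested member of 6 lists of growth and protein synthesis genes; blue and red points passed the test, grey ones did not, and black bars mark list medians. The medians lie between -0.40 and -0.15, and Mrps6 is the point farthest to the right.

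Of 22 glycolysis genes 13 rose and 3 fell (median 0.17), and of 19 other HIF1 targets 12 rose and 1 fell (median 0.44). Slc2a1, the glucose carrier GLUT1, stood at 176, 180 and 173 CPM in DMSO and 325, 325 and 298 CPM in KCl (0.84 ± 0.08), and Pkm (pyruvate kinase) at 2216, 2234 and 2213 and 2881, 2856 and 2815 CPM (0.36 ± 0.03). Hif1a itself went from 250, 240 and 243 to 390, 386 and 358 CPM (0.63 ± 0.05). Gapdh (-0.01), Slc16a3 (0.10), Pdk1 (0.05) and Vegfa (0.15) did not pass.

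Nuclear genes of the respiratory chain gave 4 rises and 13 falls of 37 (median -0.05). There were 7 falls without KCl replicate 2, and 2 rises without it or without DMSO replicate 3. The falls included Sdhc (-0.37 ± 0.06) and Cycs, cytochrome c (-0.32 ± 0.05). Sterol genes gave 2 rises and 5 falls of 24 (3 falls without DMSO replicate 1 or KCl replicate 3), with Sqle, squalene epoxidase, going from 116, 114 and 114 to 87.6, 78.6 and 74.4 CPM (-0.52 ± 0.08). Fatty acid synthesis gave 5 rises and 5 falls of 17 (3 falls without DMSO replicate 1), with Srebf1, its main factor, up by 0.46 ± 0.05 and Fasn at 0.03 without passing.

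Autophagy genes gave 14 rises and 2 falls of 26 (median 0.20). Uvrag, which helps form and mature autophagosomes, stood at 88.6, 102 and 95.7 CPM in DMSO and 223, 232 and 205 CPM in KCl (1.21 ± 0.06, with 17.6% of its exon bases shared with another gene), the ubiquitin-like Map1lc3a rose by 0.79 ± 0.09 and Map1lc3b by 0.38 ± 0.05, and Atg7, which activates them, fell by 0.63 on the log2 scale. Lysosome and V-ATPase genes gave 14 rises and 5 falls of 47 (median 0.05, with 3 falls without DMSO replicate 2 or KCl replicate 2), with the progranulin gene Grn (0.36 ± 0.04) and the protease Tpp1 (0.33 ± 0.05) rising.

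Other stress lists were mixed. The cytosolic heat shock list shares Hspa1a, Hspa1b and Hspa4l with the osmolyte list, so these genes count in both. Cytosolic heat shock genes gave 6 rises and 6 falls of 21: Cryab, a small heat shock protein, went from 23.4, 24.3 and 24.8 to 59.2, 62.6 and 60.2 CPM (1.33 ± 0.08, with 17% of exon bases shared with its neighbour Hspb2), Bag3 rose (0.53 ± 0.05), and the mitochondrial chaperonins Hspd1 (-0.41 ± 0.04) and Hspe1 (-0.47 ± 0.04) fell. ER chaperones gave 3 rises and 4 falls of 21, and Hspa5 (-0.01) did not pass. NRF2 antioxidant genes gave 6 rises and 8 falls of 25 (3 rises without DMSO replicate 3, and 5 falls without DMSO replicate 1 or KCl replicate 2), with Prdx1 up (0.38 ± 0.06) and Gsto1 down (-0.63 ± 0.06). Of metal genes, Mt1 went from 246, 240 and 240 to 146, 141 and 144 CPM (-0.75 ± 0.06). P53 targets gave 2 rises and 6 falls of 23 (10 falls with only the 6 libraries compared), with Ccng1 (-0.57 ± 0.06) falling and Mdm2 (0.34 ± 0.06) rising.

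Of 37 G1/S and replication genes 13 rose and 3 fell (median 0.12), and of 33 mitotic genes 6 rose and 3 fell (median -0.01). The G1/S falls came to 7 and the mitotic calls to 10 rises and 7 falls with only the 6 libraries compared, and the mitotic rises to 3 without KCl replicate 3. Cyclin Ccnd1 (-0.27 ± 0.05) and Ccnd2 (-0.23 ± 0.04) fell, Ccnd3 (0.32 ± 0.05) and the inhibitor Cdkn1b (0.46 ± 0.05) rose, and Mcm2 (0.08), Top2a (-0.10) and Ccna2 (0.05) did not pass. Ccnd1 shares 23.4% of its exon bases with a neighbour, so its value is uncertain. Of 17 genes of DNA methylation, 1 rose and 6 fell. Dnmt3a, the sister of Dnmt3b, rose by 0.43 ± 0.06, Tet1 fell from 3.38 to 1.76 CPM (-0.95 ± 0.24), and the maintenance enzyme Dnmt1 (0.03) did not pass. Circadian genes gave 7 rises and 2 falls of 17, with Arntl, the core clock factor, at 28, 28.1 and 27.7 CPM in DMSO and 42.7, 48.7 and 45.4 CPM in KCl (0.71 ± 0.07).

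Actin genes gave more rises than falls, with small medians. Genes of MRTF and SRF with their classic targets gave 11 rises and 4 falls of 34 (median 0.06), and other actin regulators 11 and 5 of 27 (median 0.04). Mrtfa, the actin-regulated coactivator, stood at 57.2, 65.3 and 62.4 CPM in DMSO and 78.7, 84.4 and 73.1 CPM in KCl (0.35 ± 0.07), and its relative Mrtfb at 59.1, 56.7 and 64.4 and 66.6, 70.7 and 66.9 CPM (0.18 ± 0.06). The call of Mrtfb was lost without DMSO replicate 1 or 2 or KCl replicate 2. Zyx (zyxin), a focal adhesion protein, stood at 321, 299 and 304 CPM in DMSO and 572, 524 and 508 CPM in KCl (0.80 ± 0.10), and Gsn (gelsolin), which severs actin, at 890, 960 and 928 and 1615, 1664 and 1616 CPM (0.82 ± 0.05). Srf (0.02), Actb (-0.01) and Flna (-0.07) did not pass. A CArG box, the SRF site, was found in windows of 9 of 31 of the SRF genes (29%), against 1.58% of tested genes with a window. The list was made of classic SRF targets, so this share says nothing about the effect of KCl.

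Integrin and focal adhesion genes gave 13 rises and 3 falls of 28 (median 0.17, with 5 falls when only the 6 libraries compared were used): Itgav went from 102, 95.8 and 106 to 156, 155 and 148 CPM (0.60 ± 0.05), Itga3 rose (0.45 ± 0.05), and Itga6, a laminin receptor, went from 259, 268 and 275 to 171, 177 and 186 CPM (-0.59 ± 0.05). The list of YAP and TEAD targets, which also holds the factors Yap1, Wwtr1 and Tead1, gave 9 rises and 1 fall of 17 (median 0.24). Wwtr1 and Tead1 were among the rises. Axl (0.36 ± 0.06) rose and Ccn1 (-0.16) did not pass.

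Matrix genes other than collagens gave 14 rises and 2 falls of 32 (median 0.26), and collagens with their processing enzymes 13 and 4 of 33 (median 0.15). Agrn (agrin) stood at 167, 175 and 184 CPM in DMSO and 286, 301 and 287 CPM in KCl (0.73 ± 0.05). Col18a1 rose by 0.54 ± 0.04, whereas Col1a1, the main chain of type I collagen, went from 74.1, 64.1 and 77.9 to 34.4, 30.8 and 38.5 CPM (-1.06 ± 0.13). Enzymes that build N- and O-glycans gave 17 rises and 2 falls of 31 (median 0.27): Mgat3, which adds bisecting N-acetylglucosamine, went from 1.7, 2.48 and 1.67 to 11.5, 12.1 and 12.4 CPM (2.61 ± 0.20), Galnt7, which starts O-glycans, from 84.9, 82.1 and 85.9 to 166, 179 and 166 CPM (1.02 ± 0.05), and Gal3st1, a sulfotransferase, from 0.251 to 6.94 CPM (4.73 ± 0.33).

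Interferon response genes gave 12 rises and 0 falls of 31 (median 0.26). Ifi27 went from 22.6, 25.8 and 18.4 to 52.2, 48.6 and 49.1 CPM (1.17 ± 0.09), Ddx58, a sensor of viral RNA, from 20.6, 25.2 and 20.8 to 39.2, 32.1 and 34 CPM (0.66 ± 0.09), and Tmem173 (STING) rose by 0.53 ± 0.07. Antigen presentation gave 5 rises, or 3 without DMSO replicate 1, and 2 falls of 21: Tap1 (-0.81 ± 0.08) and H2-K1 (-0.47 ± 0.08) fell, Psmb8 rose (0.85 ± 0.17), and B2m (0.04) did not pass. Among NF-kB genes and chemokines 6 rose and 2 fell of 21, with the chemokine Ccl2 at 15.9, 15.4 and 16.2 CPM in DMSO and 38.3, 33 and 35 CPM in KCl (1.16 ± 0.12).

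Receptor genes held further rises. Of 35 tested receptor genes of interleukins, the TNF family and growth factors, 13 rose and 3 fell; 0 fell without DMSO replicate 3 and 1 without KCl replicate 1. Fgfr1 went from 225, 247 and 230 to 434, 442 and 435 CPM (0.90 ± 0.05), Igf2r, which clears insulin-like growth factor 2, from 25.5, 25.2 and 28.8 to 50.3, 52.9 and 53.3 CPM (0.98 ± 0.08), and Met rose by 0.60 ± 0.05. TGF-beta and BMP genes gave 5 rises, or 8 with only the 6 libraries compared, and 1 fall of 25. Wnt genes gave 4 rises and 4 falls of 22, with 1 fall without DMSO replicate 1 and 2 without KCl replicate 2 or 3, and Notch genes gave 2 rises and 2 falls of 15. In the main fit the rises of the TGF-beta, Wnt and Notch lists were near the 17.8% of all tested genes. Rnf43, a brake on Wnt receptors, had 22 counts over the DMSO libraries and 0, 0 and 0 in KCl, too few to give a fold. Its call was lost without DMSO replicate 1.

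Markers of other cell types were followed beside these results. Of the leukocyte markers, Ptprc had 0, 0 and 0 counts in DMSO and 2, 0 and 6 in KCl, and the summed level of that list was 11.9 to 13.1 CPM in DMSO and 6.91 to 8.04 CPM in KCl. Of its 4 tested members 1 rose and 2 fell, and the rise was lost under some alternatives. Endothelial markers summed to 2.31 to 2.39 CPM and 3.97 to 6.88 CPM, and 4 of 10 had no count in any of the 6 libraries. Of the 3 tested endothelial markers 2 rose and 0 fell. Fibroblast markers summed to 1195 to 1274 CPM in DMSO and 1941 to 2007 CPM in KCl, most of it Gsn, and gave 5 rises and 1 fall of 9. Epithelial markers summed to 637 to 648 and 582 to 587 CPM; 1 rose and 2 fell of 9, and the falls were Cdh1 (-1.67 ± 0.40) and Krt8 (-0.32 ± 0.05). Their part in the matrix and surface antigen results was not tested.

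**Figure D4:**
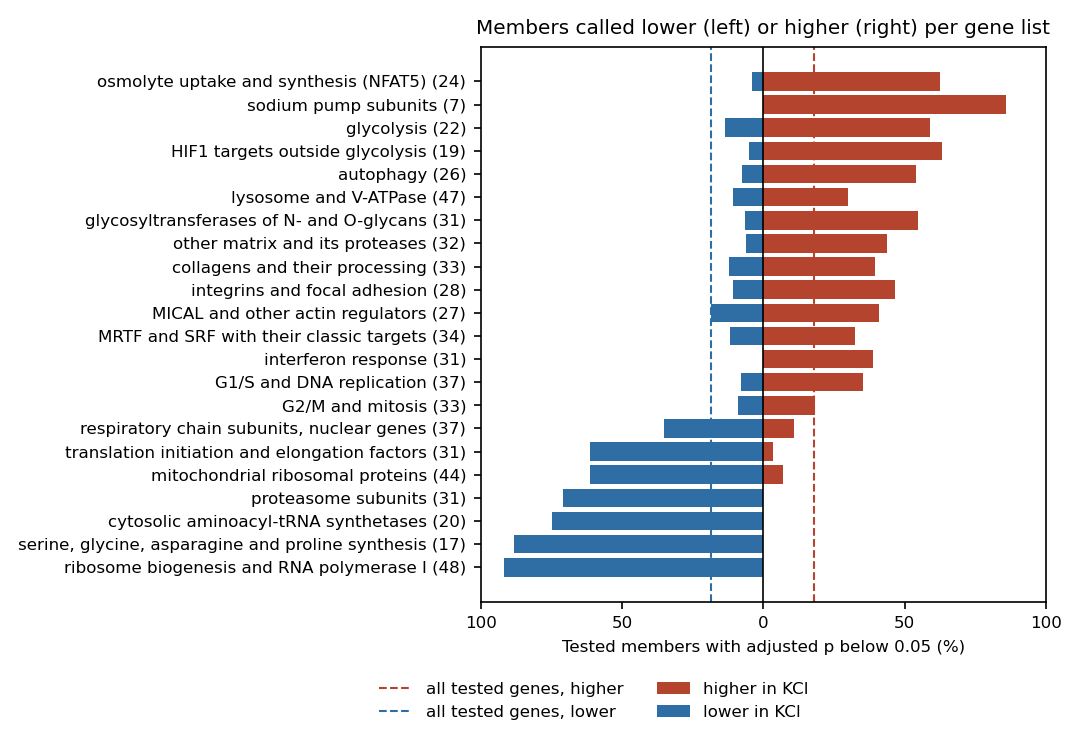
Percent of tested members called higher (right) or lower (left) in KCl for 22 of the gene lists, with the number tested in brackets. Dashed lines mark the shares of all tested genes, 17.8% higher and 18.6% lower; ribosome biogenesis reaches farthest left and the sodium pump farthest right.

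AT-3 cells received the same KCl treatment, and the difference between the lines was tested as an interaction over all 36 libraries. The effect of KCl differed in 1458 of 15969 genes (9.13%), of which 657 (4.11%) were more positive and 801 (5.02%) more negative in E0771. Of the 40 largest E0771 changes, 29 differed between the lines: 15 of 20 rises and 14 of 20 falls. Under every one of 20 alternatives 18 of the 29 kept that call, and 11 lost it under some. These genes were chosen for a large effect in E0771, which favours a difference. Of the 20 rises 5 also rose in AT-3, and of the 20 falls 2 also fell there. The share of all genes that rose or fell in AT-3 is not given here. The E0771 shares are no background for AT-3 counts.

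The effect on growth genes was more negative in E0771 for part of the members. Of 48 ribosome biogenesis genes 28 differed that way and 0 the other way, with medians of -0.32 in E0771 and -0.01 in AT-3. That count was 16 without KCl replicate 3 of AT-3 or KCl replicate 2 of E0771, 17 without DMSO replicate 2 of AT-3, and 18 without KCl replicate 1 of AT-3 or DMSO replicate 3 of E0771. The same held for 10 of 20 tRNA synthetases (medians -0.27 and -0.01) and 9 of 20 genes of amino acid synthesis (-0.39 and 0.03). The latter count was 5 without any filter, or without DMSO replicate 1 or KCl replicate 3 of AT-3, or DMSO replicate 2 or KCl replicate 2 of E0771. In the other growth lists most members did not differ beyond the threshold: 9 of 31 translation factors and 8 of 44 mitochondrial ribosomal proteins were more negative in E0771, counts that ran from 1 to 11 and from 2 to 10 over the alternatives, and 2 of the 44 were more positive. Of 31 proteasome subunits 2 were more negative. Of the osmolyte list 10 of 24 members rose in AT-3 and 0 fell, counts without an AT-3 share of all genes beside them. The median was 0.38 in AT-3 against 0.81 in E0771, and 5 members differed as more positive and 3 as more negative in E0771. Of 31 interferon genes 9 were more positive and 1 more negative in E0771, with medians of 0.26 and -0.29. Ncl stood at -0.43 in E0771 and -0.11 ± 0.06 in AT-3 (difference -0.32 ± 0.09, edgeR adjusted p = 0.0182).

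**Figure D5:**
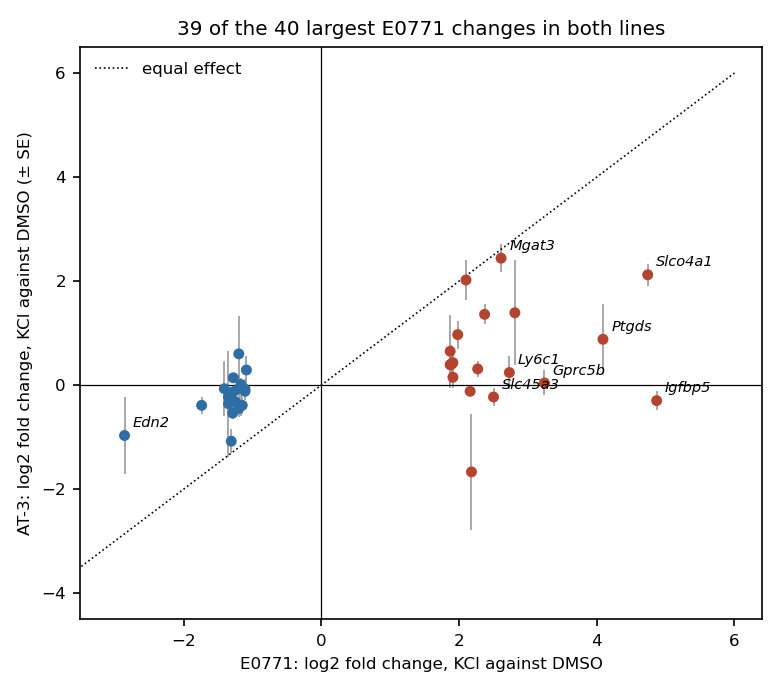
Log2 fold change of KCl against DMSO in E0771 (horizontal) and AT-3 (vertical, bars give the standard error) for 39 of the 40 largest E0771 changes; the dotted line marks equal effects. Mgat3 lies near that line, while Igfbp5, Gprc5b and Slc45a3 lie near 0 in AT-3.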

How the data were processed

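RNA was sequenced from E0771 cells, and 3 KCl libraries were compared with 3 DMSO libraries. Values are the authors' deposited raw gene counts. STAR, featureCounts and GRCm38 are named in the submitters' processing notes. Neither versions nor the counting strand were given in the sources used here. Of counts from 1 to 10, 84.5% were even, so counts were also tested halved. The 2 human-form IDs were left out. Symbols came from GENCODE vM21. The filter was filterByExpr (count 10, total 15). TMM scaling (factors 0.99 to 1.01) and edgeR 4.0.16 quasi-likelihood tests (R 4.3.3, limma 3.58.1) used all 18 E0771 libraries for the dispersion (common value 0.005). Differences from AT-3 were tested over 36 libraries. The code was tested on simulated data. DESeq2 1.42.0, other scalings and filters, a replicate block, other sets of libraries and leaving out each library were alternatives.

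Members, lists and tests were chosen with earlier results of these data known. Named genes were index genes, the 20 largest rises and falls (past the threshold, mean log2 CPM of at least 2, no overlap, not a gene model), and per list up to 6 members that passed and 4 that did not; others are marked as chosen after their values were seen. Fewer list members are named where space was short. A few genes are not reported here.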

Additional observations from a re-analysis of the deposited data

Results flagged for a closer look

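The effect of KCl differed between E0771 and AT-3 for 29 of the genes given here among the index genes and the 40 largest E0771 changes, by edgeR's interaction test with adjusted p below 0.05 over 15969 genes. Values are the log2 effect in E0771 minus that in AT-3. They were more positive in E0771 for Hspa1b 1.06, Igfbp5 5.18, Slco4a1 2.62, Ptgds 3.21, Gprc5b 3.20, Ly6c1 2.49, Slc45a3 2.73 and Dusp1 1.01, and for Cavin2 1.95, Fcer2a 3.85, Mical2 2.29, Sod3 1.49, Gpr146 1.77, Spp1 1.5, Bmf 1.48 and Hsd11b2 1.48. The effects were more negative in E0771 for Dnmt3b -1.35, Pycr1 -1.11, Mboat1 -0.75, Gls2 -1.15, Tmeff1 -1.42, Gpcpd1 -0.94 and Slc30a1 -0.75, and for Slc16a6 -1.13, Vdr -1.19, Kyat3 -0.76, Spsb1 -1.02, Angel1 -0.98 and Plb1 -1.37.

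In DMSO, Igfbp5 averaged 7412 CPM in AT-3 and 0.273 CPM in E0771, and Vdr 758 and 11.8 CPM. Fcer2a averaged 0.0510 CPM in AT-3 in DMSO, so its fold there rests on few counts.

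Of these 29 calls 18 held under all 20 alternatives (DMSO 3 stands for DMSO replicate 3, and so on). That of Sod3 was lost under 14, with any 1 of the compared libraries of either line left out among them. Those of Bmf and Hsd11b2 were each lost under 13, which for Bmf included every library left out but DMSO replicate 2 of E0771 and for Hsd11b2 every one but KCl replicate 1 of AT-3. The call of Slc30a1 was lost under 7 alternatives, in AT-3 when DMSO 3, KCl 1 or KCl 2 was left out and in E0771 when DMSO 1, DMSO 3, KCl 1 or KCl 2 was. That of Kyat3 was lost under 6, in AT-3 when DMSO 1, DMSO 3, KCl 1 or KCl 2 was left out and in E0771 when DMSO 2 or KCl 2 was. Slc16a6 did not pass when DMSO 1, DMSO 3 or KCl 3 of AT-3 or KCl 1 of E0771 was left out. Gpcpd1 lost it without DMSO replicate 2 of AT-3 or DMSO replicate 1 or KCl replicate 3 of E0771, and Spsb1 without DMSO replicate 1 or KCl replicate 2 of AT-3 or DMSO replicate 3 of E0771. Plb1 lost it without KCl replicate 3 of either line, and Ptgds without DMSO replicate 1 of AT-3. Fcer2a lost its call under 8 alternatives, among them any 1 of DMSO replicates 1 and 2 and KCl replicates 1 and 2 of E0771 and KCl replicates 1 and 2 of AT-3 left out, and turned without DMSO replicate 3 of AT-3.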

How the results depend on the processing

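Under the 15 alternatives to the comparison of KCl with DMSO the number of called genes stayed within 1.5-fold of 4860. It was 5054 with DESeq2, 4849 with DESeq2 size factors, 4872 with library totals only, 4808 without a filter, 4850 with a filter of 1 CPM, 4877 with halved counts, 5659 with only the 6 libraries compared and 5473 without the 2 E0771 libraries that stand apart. Leaving out 1 library gave 4045 to 4428. The count at 2-fold or more ran from 354 with the 1 CPM filter to 540 with DESeq2. With the replicate number as a block 5060 genes passed; deviations of same-numbered KCl and DMSO libraries correlated at -0.00756, 0.0119 and 0.0334, not every library correlated best with its own number, and the numbers were not taken to pair the libraries. The difference between the lines ran from 1078 to 1914 genes against 1458.

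Of 555 named genes in the fit 348 were called, and 326 of these passed under every alternative; 22 were lost under some alternative, 20 of them only with a library left out, and 0 turned. Of the 207 that were not called, 65 passed under some alternative. For the difference between lines, Fcer2a ran from -0.42 to 6.48 with 1 library left out and turned without DMSO replicate 3 of AT-3 (edgeR adjusted p = 0.797); the cause was not tested. Other than that, 8 alternatives lost its call. The calls of Sod3 (14 of 20 alternatives), Bmf and Hsd11b2 (13 each), Slc30a1 (7) and Kyat3 (6) were also lost often. Without the 2 libraries that stand apart, the falls of ATF4 stress factors came to 9, of p53 targets to 10, of G1/S genes to 6 and of integrin genes to 5, mitotic genes gave 10 rises and 7 falls, and TGF-beta genes 8 rises. Genes with few counts, such as Slc6a12, limit what the depth can show.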

Other observations

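Further gene lists held smaller groups of changes. Of 7 tested Ly6 surface antigens 4 rose and 0 fell (median 0.41), with Ly6a at 6.78, 6.44 and 8.78 CPM in DMSO and 16.5, 17.3 and 19.1 CPM in KCl (1.27 ± 0.16) and Ly6e up by 0.32 ± 0.04. Acid-base transport gave 3 rises and 4 falls of 18 (median -0.18), or 5 and 7 with only the 6 libraries compared: Car12, a carbonic anhydrase of the cell surface, went from 19.2, 15.2 and 16.1 to 7.83, 8.46 and 10 CPM (-0.94 ± 0.20), and the lactate carrier Slc16a1 fell by 0.28 on the log2 scale. In prostaglandin synthesis 2 rose and 3 fell of 11, with Ptges2 falling (-0.50 ± 0.06) and Ptges (0.12) not passing.

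Histone deacetylases and Polycomb genes gave 6 rises and 3 falls of 19 (median 0.11, with 1 fall without DMSO replicate 2), with Hdac7 (0.40 ± 0.05) and Hdac5 (0.34 ± 0.05) rising and Ezh2 falling (-0.22 ± 0.06). Of 4 tested glucose-sensing arrestins and MLX factors 2 rose and 1 fell: Arrdc3, an arrestin of glucose uptake control, went from 28.3, 27.8 and 29.7 to 16.4, 13.8 and 16.3 CPM (-0.88 ± 0.09), and Txnip (-0.32) did not pass. Genes of mesenchymal transition gave 6 rises and 2 falls of 13 (median 0.17), with Twist1 up (0.32 ± 0.08) and Vim down (-0.16 ± 0.03).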
